A study of Rattus norvegicus with 22 samples.

Results

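Cocaine was compared with control in prefrontal cortex from male Sprague-Dawley rats by RNA sequencing of whole tissue, with 3 cocaine libraries and 3 control libraries. None of these 6 libraries came from rats exposed to WIN, the synthetic cannabinoid receptor agonist given to other rats of the series. The members of the comparison were the genes with an FPKM (reads scaled to gene length and library total) of 1 or more in at least 3 of the 12 prefrontal cortex libraries, which were 15326 of the 29663 genes listed. The other 6 prefrontal cortex libraries, 3 WIN and 3 WIN with cocaine, served only to estimate the spread and to set that filter. The sources used here give no dose, route, number of injections, age or time of dissection, and they do not name the vehicle of the controls. Whether each library is its own animal is also unstated, so a p-value here reflects only how far these libraries spread, and that spread may be technical.

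Cocaine blocks the reuptake of dopamine and other monoamines into nerve terminals. The prefrontal cortex receives dopamine fibres from the midbrain and, through glutamatergic output neurons, takes part in the control of drug seeking. Acute cocaine is known to induce immediate early genes in this region, and repeated cocaine is known to alter genes of synapses and chromatin. The deposited IDs are not paired with gene names, and none of them matched the reference gene table at hand. Gene identities, the 47 gene lists by symbol and the markers that would check the labelled tissue were therefore not analysed here, and the members are described by their levels, lengths and spread.

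Depth was similar in both groups. The 3 cocaine libraries held 23155951, 23387726 and 26170665 reads, and the 3 control libraries held 23524457, 20852442 and 25911627, as recovered from the FPKM values. Between 14625 and 14932 genes reached an FPKM of 1 in each of these libraries. The libraries of the cocaine group differed more among themselves than those of the control group. The median SD of a gene on the log2(FPKM + 1) scale was 0.129 in cocaine and 0.0998 in control, and 61.8% of the genes had the larger SD in cocaine. Pearson correlations between libraries, across genes, ran from 0.981 to 0.987 within cocaine and from 0.989 to 0.990 within control. No pair within a group agreed within sampling noise, with a chi-square per degree of freedom of 16.4 to 28.9 between cocaine libraries and 9.14 to 9.98 between control libraries.

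At an adjusted p under 0.10, a large share of the tested genes differed between cocaine and control, in both directions and mostly at small size. This threshold was chosen with earlier results of these data known. Leaving out cocaine replicate 1 or 2 or control replicate 2 or 3 left at most 1 such gene, as given below. In cocaine 1544 genes, or 10.1%, were higher and 1493, or 9.74%, were lower at an adjusted p under 0.10 in limma with Benjamini-Hochberg adjustment over all 15326 genes. Together these were 3037 genes, or 19.8%, and only these are referred to as called, raised or lowered from here on. The raised genes differed by a median log2 value of 0.39 and the lowered genes by -0.37, both as log2(FPKM + 1), where the added 1 shrinks the difference of weakly expressed genes. The balance of both directions depended on scaling: 50.8% of the calls were higher in cocaine with the deposited scaling, 56.8% with median ratio rescaling, 46.6% with quantile normalization and 44.0% with upper-quartile rescaling. A 1.5-fold difference was reached by 220 of the raised and 72 of the lowered genes, and a 2-fold difference by 33 and 11. In whole tissue, fewer cells of a type and less RNA per cell cannot be told apart.

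These calls rest on the threshold of 0.10. At an adjusted p under 0.05 the same fit called 0 genes, or 0%, and limma voom on the recovered reads called 0, while 4768 genes had an unadjusted p under 0.05. The adjusted p-values lay close together: 431 genes shared the smallest one, 0.0596, and every called gene had an unadjusted p of at most 0.0198. A fit to the 6 cocaine and control libraries alone called 1378 genes at 0.05, or 8.99%, of which 774 were higher and 604 lower in cocaine. Of those, 1314 were also among the 3037. WIN replicate 3, which had the lowest library weight of the 12, at 0.296, bore on the count at 0.05: without it the 12-library design called 2772 genes at 0.05 and 4420 at 0.10. At 0.10 in the 12-library fit, leaving out cocaine replicate 1 or cocaine replicate 2 gave 0 calls, leaving out control replicate 2 or control replicate 3 gave 1 call each, leaving out control replicate 1 gave 1664, and leaving out cocaine replicate 3 gave 2946. Without any WIN-exposed library, 3 genes were called at 0.10 when control replicate 2 was left out, and leaving out control replicate 3 gave 1019. The same fit called 1850 genes when cocaine replicate 2 was left out and 1967 when control replicate 1 was, and at least 2352 when cocaine replicate 1 or 3 was.

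**Figure D1:**
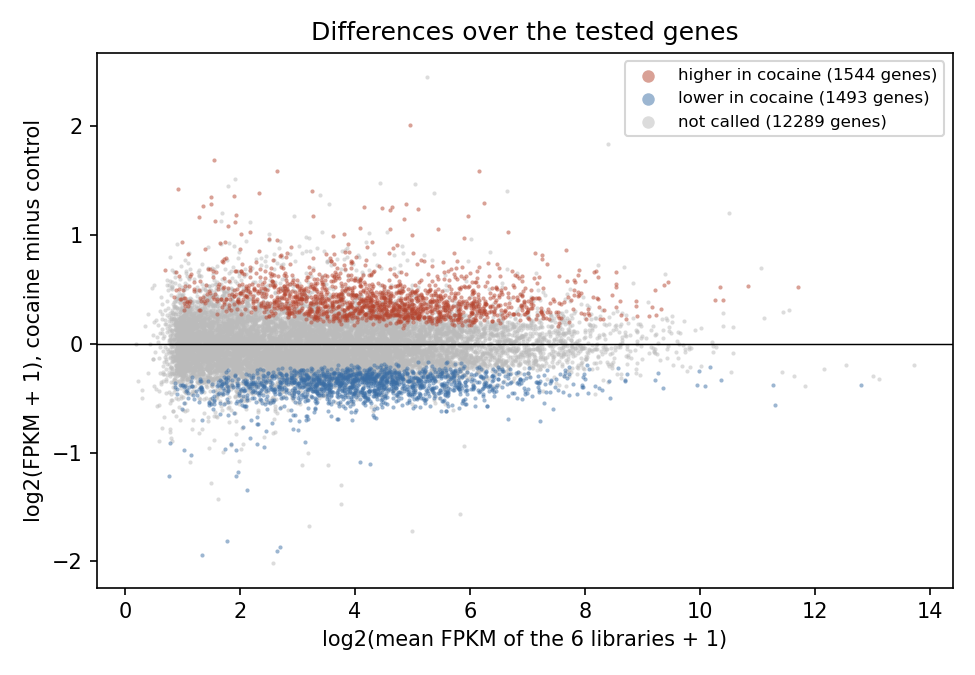
Each point is 1 of the 15326 tested genes, with the log2 of its mean FPKM over the 6 libraries plus 1 on the x axis and its log2(FPKM + 1) difference, cocaine minus control, on the y axis. Genes called higher (1544) and lower (1493) at an adjusted p under 0.10 lie in bands on both sides of 0, and most differ by less than 1 log2 unit.

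The spread of the differences over all genes gives the scale on which the calls stand. The median lay at -0.019, with quartiles at -0.19 and 0.17. Its value depended on scaling, with -0.019 after quantile normalization and -0.026 after upper-quartile rescaling. After median ratio rescaling, which sets this median near 0 by design, it was 0.0025. It was -0.032 without cocaine replicate 1. The lowest difference was -2.02 and the highest 2.45. Called or not, 372 genes were higher and 138 lower in cocaine by 1.5-fold or more, and 52 were higher and 24 lower by 2-fold or more. The called genes thus made up part of each of these sets.

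The groups did not overlap in 6132 genes, or 40.0%: in 2838, or 18.5%, all 3 cocaine values lay above all 3 control values, and in 3294, or 21.5%, all lay below. Among the called genes this held for 1508 of the 1544 raised and 1465 of the 1493 lowered genes. The remaining 36 raised and 28 lowered genes passed the test although the ranges of the groups overlapped. The calls and the overlap used the same cocaine and control values, so a high share among the called genes adds no support.

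The 6 libraries did not contribute equally to this separation. On the first principal component of the 6 libraries, which held 43.6% of the variance, cocaine lay at 28.9, 16.8 and 4.76 and control at -11.6, -24.4 and -14.5 in the order of the replicate numbers. Cocaine replicate 3 was the nearest of its group to control. The second component, with 22.1% of the variance, set cocaine replicate 1 at 20.8 against cocaine replicate 2 at -22.2, with the 3 controls between -0.547 and 5.46, so that this axis described the spread within cocaine.

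The libraries also differed in how far the called genes lay from the mean, given as a description of values that the calls themselves used. The raised genes lay above the mean of the 6 libraries by a median log2 value of 0.21 in cocaine replicate 1, 0.21 in replicate 2 and 0.12 in replicate 3. They deviated by -0.16, -0.27 and -0.14 in control replicates 1, 2 and 3. The lowered genes deviated by -0.20, -0.24 and -0.10 in the cocaine replicates and by 0.12, 0.27 and 0.16 in the control replicates. Control replicate 2 was thus the most distant control in both sets and cocaine replicate 3 the least distant cocaine library. Cocaine replicate 3 was the cocaine library nearest to control in 58.0% of the raised genes and 65.0% of the lowered genes, and control replicate 2 was the control library nearest to cocaine in only 7.97% and 6.36%.

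**Figure D2:**
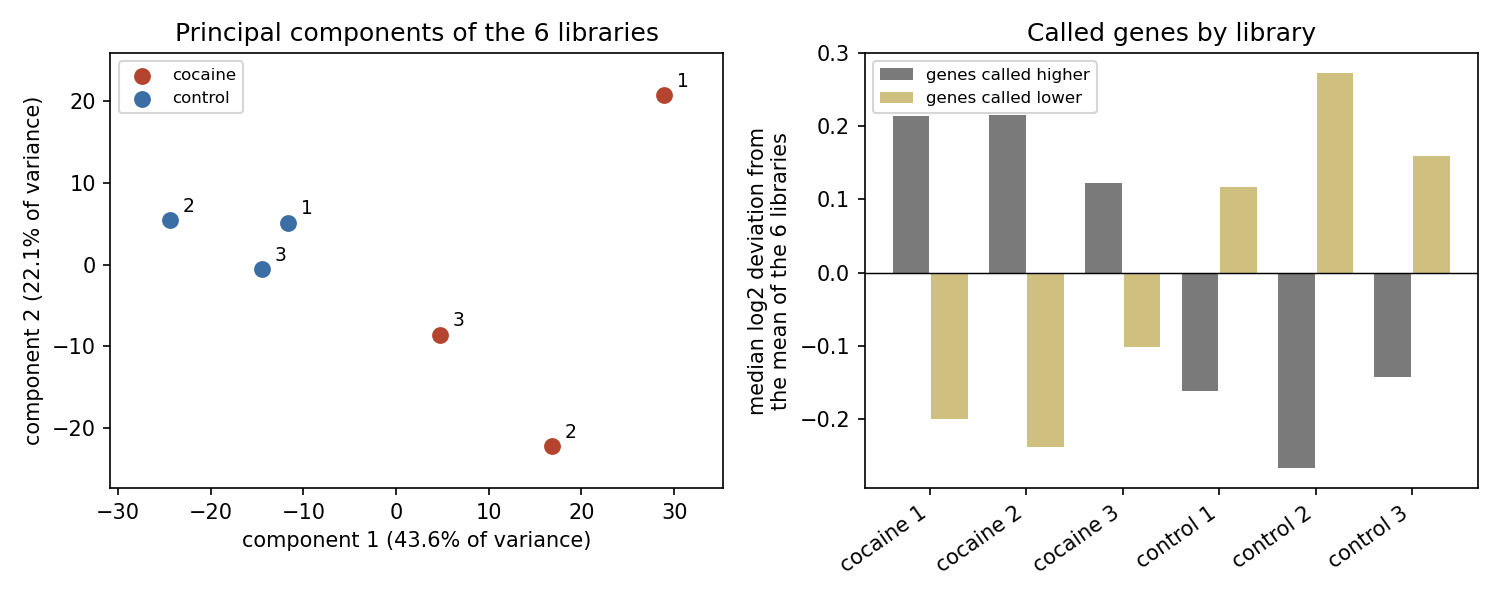
Left, the 6 libraries on the first 2 principal components of log2(FPKM + 1) over the tested genes, numbered by replicate. Right, for each library the median deviation of the raised and of the lowered genes from the mean of the 6 libraries, which is smallest within cocaine for replicate 3 and largest within control for replicate 2.

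The largest called differences among genes of at least 10 FPKM are shown by 2 IDs in each direction. They are the IDs with the largest log2 difference among called genes whose groups did not overlap and whose mean FPKM over the 6 libraries was at least 10, so the separation of their groups follows from the choice. By size of difference, up or down, over all tested genes, they ranked 3, 12, 59 and 61 in the order given below. The files give no name for these IDs, and no role can be stated.

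ENSRNOG00000045653, of 1086 bp, had an FPKM of 43.5, 65.3 and 37.8 in the cocaine libraries, against 10.4, 11.6 and 11.1 in the control libraries. The control values lay close together, and the lowest cocaine value was more than 3 times the highest control value. Reads numbered 1093, 1659 and 1074 in cocaine and 266, 262 and 311 in control. The mean was 48.9 ± 14.5 in cocaine and 11.0 ± 0.580 in control (SD, n = 3 each). The log2 difference was 2.02 ± 0.59 (SE), with an adjusted p of 0.0659 in limma. With the 6 libraries alone the adjusted p was 0.0356. In the 12-library design the call ended without cocaine replicate 1 or 2 or any 1 control, at adjusted p-values of 0.112 to 0.240 in limma, with log2 differences of 1.79 to 2.08. The gene had the third largest difference, up or down, of all tested genes. It was not low in every library without cocaine: WIN replicate 2 had an FPKM of 60.7, beside 8.18 and 8.85 in the other WIN libraries.

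ENSRNOG00000043465, of 3015 bp, had 117, 124 and 70.0 FPKM in cocaine, against 16.3, 32.4 and 65.2 in control. The groups were separated by a narrow margin here, since cocaine replicate 3 and control replicate 3 differed by less than 5 FPKM. Both groups varied widely, with 104 ± 29.2 in cocaine and 38.0 ± 24.9 in control (SD, n = 3 each). The log2 difference was 1.59 ± 0.53 (SE), with an adjusted p of 0.0804 in limma, and 0.0630 with the 6 libraries alone. It was 1.11 without control replicate 1 and 2.08 without control replicate 3. The call ended without cocaine replicate 1 or 2 or any 1 control, at adjusted p-values of 0.110 to 0.243 in limma. It also ended with all 12 libraries kept. Library weights gave a log2 difference of 1.25 at an adjusted p of 0.132 in limma, and a prior variance made robust to outlying genes gave 0.111. Reads ran from 5527 to 8720 in cocaine and from 1153 to 5093 in control.

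Novel01020, which has no Ensembl ID and is 1298 bp long, was lower in cocaine, at 17.5, 9.49 and 7.92 FPKM against 28.3, 23.8 and 22.8 in control. The cocaine libraries differed more than the controls, and replicate 1 was the highest of them. The mean was 11.6 ± 5.14 in cocaine and 25.0 ± 2.89 in control (SD, n = 3 each). The log2 difference was -1.11 ± 0.34 (SE), with an adjusted p of 0.0707 in limma. With the 6 libraries alone the adjusted p was 0.0419. Leaving out any 1 of the 6 libraries from the 12-library design ended the call, at adjusted p-values of 0.126 to 0.240 in limma, with log2 differences of -1.42 to -0.89. The transcript was also low in the WIN libraries, at 13.0, 13.6 and 7.16 FPKM, which all lay below the 3 controls. The WIN+cocaine libraries, at 8.56, 22.1 and 10.2 FPKM, lay below the 3 controls too, so every library other than control did.

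ENSRNOG00000045730, of 450 bp, had 5.18, 15.7 and 10.4 FPKM in cocaine, against 21.2, 17.5 and 26.4 in control. Cocaine replicate 2 and control replicate 2 were less than 2 FPKM apart. This short gene rested on few reads, 54, 165 and 122 in cocaine and 224, 164 and 308 in control. The mean was 10.4 ± 5.25 in cocaine and 21.7 ± 4.49 in control (SD, n = 3 each). The log2 difference was -1.09 ± 0.37 (SE), with an adjusted p of 0.0863 in limma. With the 6 libraries alone the adjusted p was 0.0736. Leaving out any 1 of the 6 libraries from the 12-library design ended the call, at adjusted p-values of 0.112 to 0.240 in limma, and so did leaving out WIN+cocaine replicate 2, at 0.104. A prior variance made robust to outlying genes ended the call with all 12 libraries kept, at 0.110 in limma. The log2 difference ran from -1.42 without cocaine replicate 2 to -0.70 without cocaine replicate 1, was -1.23 to -0.94 with any other of the 6 left out, and stayed at -1.09 without WIN+cocaine replicate 2.

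**Figure D3:**
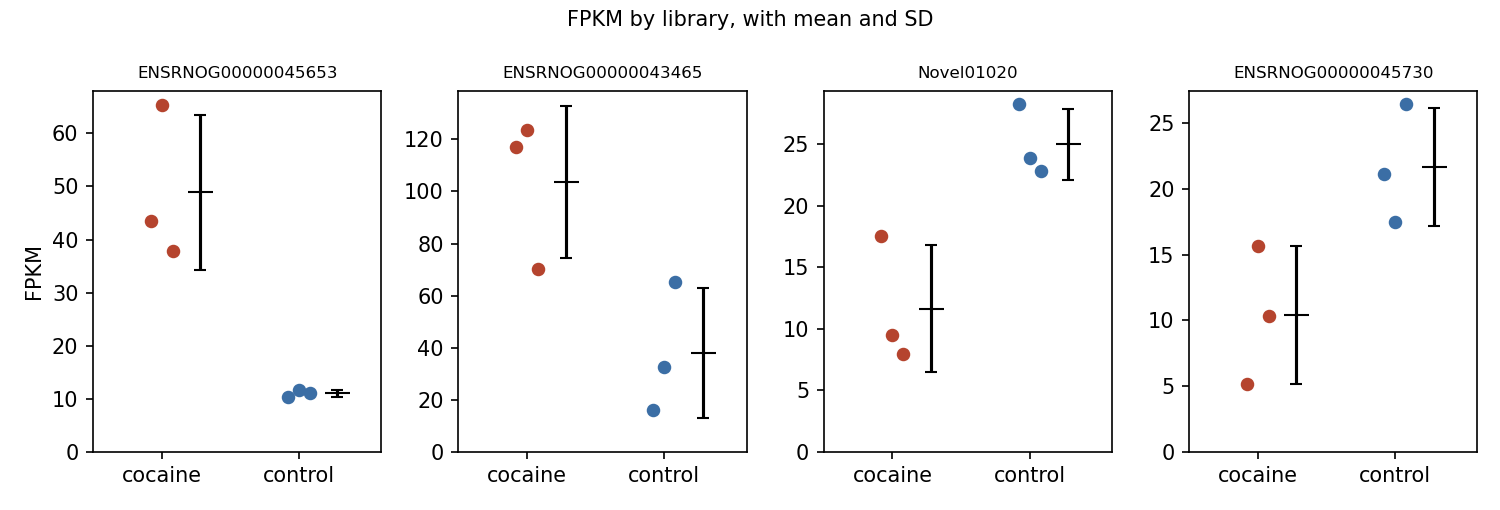
FPKM of the 4 IDs in the 3 cocaine and the 3 control libraries, 1 panel per ID on its own linear scale that starts at 0; points are libraries and bars are the mean and SD. The first 2 IDs are higher and the last 2 lower in cocaine, and for ENSRNOG00000043465 and ENSRNOG00000045730 the nearest libraries of the 2 groups almost meet.

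The mean of the cocaine libraries was the highest of the 4 treatments for both raised IDs. ENSRNOG00000045653 averaged 48.9 FPKM in cocaine, 25.9 ± 30.1 (SD, n = 3) in WIN, 15.8 in WIN with cocaine and 11.0 in control. ENSRNOG00000043465 averaged 104 in cocaine, 31.5 in WIN, 44.1 in WIN with cocaine and 38.0 in control. For the lowered IDs the control mean was the highest: Novel01020 averaged 11.6 in cocaine, 11.3 in WIN, 13.6 in WIN with cocaine and 25.0 in control, and ENSRNOG00000045730 averaged 10.4, 13.6, 15.2 and 21.7 in the same order. The IDs were chosen on cocaine and control, and the other groups are given as values with no test.

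More genes were called where expression was higher. The tested genes were divided into 4 bins of near equal number by mean FPKM over the 6 libraries. In the lowest bin, up to 3.30 FPKM, 3.31% of the genes were raised and 3.39% lowered. The shares were 8.09% and 8.98% in the next bin, 11.9% and 14.1% in the one from 9.72 to 25.5 FPKM, and 17.0% and 12.4% in the bin above that. In the lower 3 bins the lowered share was the larger and among the most abundant genes the raised share, all with the deposited scaling. The median SE of the log2 difference was 0.15 in the lowest and 0.095 in the highest bin, with a median of 71.5 and 2378 reads per library. The part of this precision in the shares was not tested.

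The differences also moved with gene length, taken as the length that the FPKM steps imply. Such lengths were checked only in the 11615 genes with over 200 reads in a library. A gene of few reads comes out too short where its reads share a divisor in all libraries. The tested genes were divided in the same way into 4 bins by length. The shortest genes, up to 1194 bp, had a median log2 difference of 0.0099, with 8.32% raised and 5.64% lowered. Implied lengths in this bin began at 26 bp, and its median was 143 reads per library, so it may hold genes placed too short. Genes of 1195 to 1922 bp had -0.0013, with 11.1% raised and 8.37% lowered, and genes of 1923 to 3017 bp had -0.025, with 11.5% raised and 11.6% lowered. The longest genes, from 3019 bp, had -0.055, with 9.34% raised and 13.3% lowered. These medians depended on single libraries: that of the shortest genes was -0.011 without cocaine replicate 1 and 0.021 without cocaine replicate 2. Genes of 1195 to 1922 bp had a median of -0.026 without cocaine replicate 1 and 0.0083 without cocaine replicate 2. The longest genes had -0.035 without control replicate 2 and -0.077 without control replicate 1, and stayed below 0 with any 1 of the 6 libraries left out.

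In each bin of abundance the longest genes had a lower median difference than the shortest. Among genes of 9.72 to 25.5 FPKM, 9.28% of the shortest were raised and 7.16% lowered, whereas 11.8% of the longest were raised and 20.2% lowered. Among the most abundant genes, 14.8% of the shortest were raised and 6.70% lowered, while 16.4% of the longest were raised and 17.6% lowered.

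The length pattern was uneven between libraries of the same group. The median deviation of the longest genes minus that of the shortest was -0.084, 0.0014 and -0.0063 in cocaine replicates 1, 2 and 3, and -0.026, 0.075 and 0.045 in control replicates 1, 2 and 3. Cocaine replicate 1 and control replicate 2 thus lay at the ends, and cocaine replicates 2 and 3 lay between control replicate 1 and the other controls. The median difference of the longest minus the shortest genes was -0.065 with all 6 libraries, -0.041 without cocaine replicate 1 and -0.040 without control replicate 2. With any other of the 6 left out it ran from -0.092 (without control replicate 1) to -0.054 (without control replicate 3). The part of these libraries' length profiles in the calls was not tested.

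**Figure D4:**
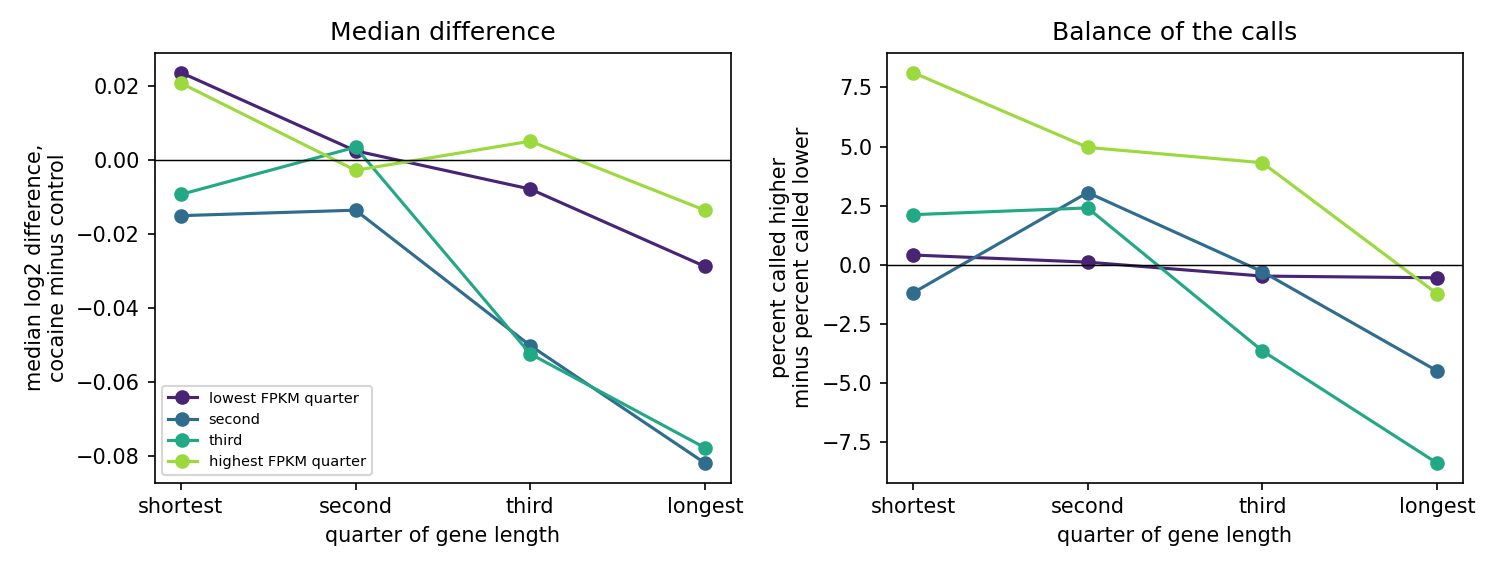
Genes are divided into 4 bins of length (x axis) and 4 bins of mean FPKM over the 6 libraries (lines). The left panel gives the median log2(FPKM + 1) difference, cocaine minus control, and the right panel the percent of genes called higher minus the percent called lower; in every line the longest genes lie below the shortest.

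Genes without an Ensembl ID were more often lowered than raised. Of 1278 such genes 35, or 2.74%, were raised and 88, or 6.89%, lowered. Of 14048 genes with an Ensembl ID 1509, or 10.7%, were raised and 1405 lowered. Genes without an Ensembl ID were thus called less often in both directions, and the gap was wider for raised genes. Genes without an Ensembl ID had a median of 1.95 FPKM and the others 11.0 FPKM. Restricted to genes of up to 5 FPKM, 1.43% of 980 were raised and 3.88% lowered, against 4.67% and 4.62% of 4158 genes with an Ensembl ID. The median log2 difference was -0.047 for genes without and -0.016 for genes with an Ensembl ID, and this difference was not tested. Leaving out 1 of the 6 libraries gave medians of -0.064 (without cocaine replicate 3) to -0.034 (without cocaine replicate 2) for genes without an Ensembl ID. For genes with an Ensembl ID they ran from -0.030 (without cocaine replicate 1) to -0.011 (without cocaine replicate 2).

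Few members passed the filter through the 3 cocaine libraries alone or the 3 control libraries alone. Of the tested genes, 13472 reached an FPKM of 1 in all 12 libraries and 250 in exactly 3, and 333 genes that did so in exactly 2 were not tested. Only 3 tested genes reached it in the 3 cocaine libraries and nowhere else, of which 1 was called, and 2 in the 3 control libraries and nowhere else, of which 1 was called. Genes that reached it in more libraries but mainly in one group were not counted. A further 18 tested genes reached it in none of the 6 libraries compared. Genes with reads in one group alone were rare. Over all genes listed, 38 had reads in every cocaine library and none in any control library, with at most 6 reads in a library, and 28 had reads in every control library and none in any cocaine library, with at most 44.

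**Figure D5:**
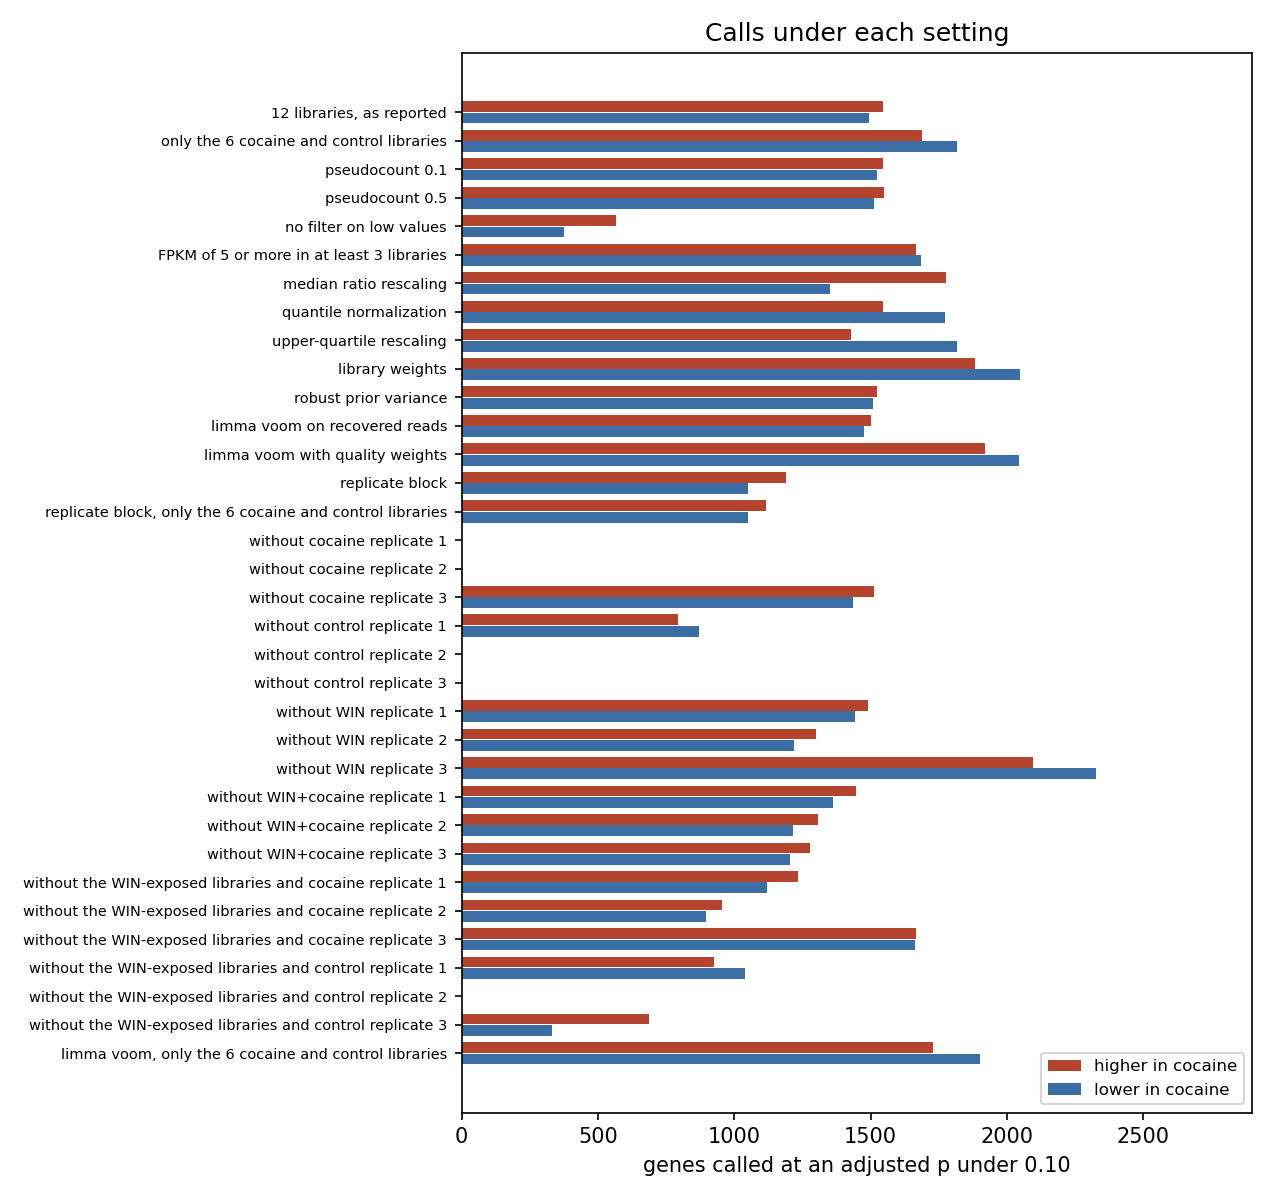
Genes called higher and lower at an adjusted p under 0.10 in the fit as reported (top, 1544 and 1493) and under each alternative that keeps this threshold. No bar is visible where cocaine replicate 1 or 2 or control replicate 2 or 3 is left out of the 12-library fit, or control replicate 2 out of the 6-library fit.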

How the data were processed

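RNA libraries of prefrontal cortex were made with a stranded kit from 1 µg of total RNA each, per the labels' protocols. HISAT2, HTSeq and DESeq are named, without versions, in the submitters' processing notes. Genome build, annotation and strand handling are unstated in the sources used here, and genes that overlap, run antisense or are near-identical may share reads. The authors deposited FPKM values for 12 libraries, 3 per treatment. The ATAC regions and the nucleus accumbens libraries were not used here.

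Whole reads were recovered from the FPKM steps. For each gene a step was sought at which its values came out whole, and 100% of values above 0 did within 0.03 reads. That share follows in part from the search. After a common factor was fitted, 99.98% of implied lengths lay within 0.03 bp of a whole length, against 6% by chance. This held for genes with over 200 reads in a library. The test used limma (version 3.58.1, R 4.3.3). It fitted log2(FPKM + 1) in 12 libraries with a mean per treatment and an abundance-dependent prior variance, and adjusted p-values by Benjamini-Hochberg over all 15326 genes. None of the 47357 reference genes matched a deposited ID. The members, the lists, the IDs' rule and the threshold of 0.10 were chosen with earlier results of these data known, among them that no gene passes 0.05 and many pass 0.10. With no symbols at hand, the rule's fallback applied and took 2 IDs in each direction, called, with groups that do not overlap, a mean FPKM of at least 10 and the largest difference. The code of the fit was run on simulated data with noise drawn independently for each gene and library. Such data hold no shifts shared by many genes of a library, so the run cannot bear on their part in the calls. Alternatives covered the pseudocount, filter, scaling, weights, voom, pairing and left-out libraries.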

Additional observations from a re-analysis of the deposited data

How the results depend on the processing

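The count of 3037 called genes stayed within 1.5 times in 23 of 35 alternatives and moved further in 12. A threshold of 0.05 gave 0 genes, 0 higher and 0 lower. Without a filter on low values, which raised the genes tested to 24197, the count was 943, with 566 higher and 377 lower. The 6 compared libraries at 0.05 gave 1378, with 774 higher and 604 lower; this alternative and voom on those libraries (3632 at 0.10) were added after seeing the data. Leaving out 1 library gave 0 to 4420 genes, 0 to 2095 higher and 0 to 2325 lower. Library weights gave 3929 genes at 0.10 and 2083 at 0.05, and voom with quality weights 3962 and 2276. A filter at 5 FPKM gave 3351 at 0.10 and 1142 at 0.05. The cause of these shifts was not tested.

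With a replicate block 2240 genes were called, 1189 higher and 1051 lower. Deviations of cocaine and control libraries with the same number correlated at 0.130, 0.030 and 0.0059 across genes. Those of libraries with different numbers correlated at -0.093 to 0.065. Of the pairs with the same number, only replicate 1 passed 0.1 or lay above that range, so the numbers were not taken as a pairing. With the block, ENSRNOG00000045730 had an adjusted p of 0.119 in limma.

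Each of the 4 IDs kept its direction in all 35 alternatives, which adds no support since they were chosen on this comparison. ENSRNOG00000045653 stayed past its threshold in 27, Novel01020 in 26, ENSRNOG00000043465 in 21 and ENSRNOG00000045730 in 19. Over all of these the adjusted p in limma ran from 0.00818 to 0.243. Without a filter on low values each of the 4 IDs lost its call, at adjusted p-values of 0.112 to 0.148 in limma.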
